A study of Mus musculus with 9 samples.

Results

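The genes described here encode 6 families of xenobiotic-metabolising enzymes, followed in whole lung of C57BL/6 mice at day 21. They were taken by a rule on gene symbols, and were chosen with earlier results of these data known. Taken were cytochrome P450 genes (Cyp), flavin-containing monooxygenases (Fmo), aldehyde dehydrogenases (Aldh) and the carboxylesterases of groups Ces1 and Ces2. Also taken were UDP-glucuronosyltransferases (Ugt) and the glutathione S-transferases (Gst) named by symbol as alpha, kappa, mu, pi, theta, omega or zeta class. Cyp and Aldh symbols had to hold a number, a letter and a number, so Aldh2 and Cyp51 could not enter. Glutathione S-transferases under other symbols could not enter either. The deposited gene table held 142 such genes among 32671, of which 65 were Cyp, 24 Gst, 20 Aldh, 15 Ces, 12 Ugt and 6 Fmo genes. Saline was given to the controls, and bleomycin, a glycopeptide that breaks DNA and scars the lung, to both other groups. Of these, 1 is called bleomycin here, and the other, called LNP, also inhaled DOPS lipid nanoparticles labelled mCas9/gSting. Cas9 is a nuclease guided by a short RNA, and the guide is named after Sting, a sensor of cytosolic DNA. All 3 groups are labelled WT, and each had 3 libraries. No group with particles lacking the guide is analysed here, so effects of the guide, of the particle and of its cargo cannot be told apart. Whether the 3 samples of a group are from separate animals is not stated, so p-values speak for the spread among these samples, which may be technical.

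Xenobiotic metabolism is usually described in phases. P450 enzymes and flavin-containing monooxygenases insert oxygen into lipophilic compounds with electrons from NADPH, carboxylesterases split esters and amides, and aldehyde dehydrogenases oxidise reactive aldehydes to acids. Glutathione S-transferases and UDP-glucuronosyltransferases then attach glutathione or glucuronic acid, which makes the products soluble. In the lung these enzymes are best known from the club cells of the airways, secretory cells that carry much P450, and from alveolar type 2 cells. Several members also act on the body's own molecules, such as retinoic acid, cholesterol, leukotrienes and steroids.

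The libraries held 56047830 to 69404903 gene counts each. Of the 142 members, 99 passed the filter on low counts and were tested with 20794 genes in all. The 43 members that did not pass had at most 95 counts in any library and at most 1.66 CPM (counts scaled to library size and composition). They include Cyp1a2, Cyp3a11, Cyp4a10 and Cyp4a14, genes best known from liver, whose highest level in any library was 0.192 CPM. These names were chosen after their values were seen. In 1 library, LNP replicate 3, other tissue was prominent. Its summed level of 12 skeletal muscle markers was 9973 CPM, against 10.2 to 59.3 CPM elsewhere, and that of 12 squamous epithelium markers was 2018 CPM, against 38.0 to 94.3 CPM elsewhere. The counts of members called in LNP comparisons, and the genes whose call changes, are therefore given with and without it. Sting1, the gene the guide is named after, measured 18.4, 23.9 and 20.9 CPM in control, 53.8, 41.5 and 40.5 CPM in bleomycin and 51.8, 62.0 and 44.2 CPM in LNP libraries. The level in LNP libraries was not below that in bleomycin libraries (log2 difference 0.22, 95% interval −0.17 to 0.61, adjusted p = 0.48). A transcript level does not show whether a site was edited.

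In control lungs 1 member far exceeded the rest. Cyp2f2, a P450 that activates naphthalene and styrene in club cells, had a deposited level of 2309 ± 206 FPKM (fragments scaled to transcript length and library size; SD, n = 3). Gstm1, a mu-class glutathione S-transferase, followed with 522 ± 87.6 FPKM and Cyp4b1, a fatty acid and arylamine hydroxylase of lung, with 422 ± 37.5 FPKM. Over the control libraries Cyp2f2 did not overlap with any other member, while the ranges of Gstm1 and Cyp4b1 overlapped. Aldh1a1, a cytosolic retinaldehyde dehydrogenase, had 314 ± 16.3 FPKM and Ces1d, a lipid-hydrolysing carboxylesterase, had 305 FPKM (290 to 325 FPKM), a range that overlapped with that of Aldh1a1. Cyp2b10 (150.5 ± 18.5 FPKM), Fmo2 (133 ± 34.4 FPKM) and Gstm2 (120.3 ± 9.49 FPKM) came next and also overlapped. Of the 142 members, 10 had a mean of at least 100 FPKM in control lungs, 4 in bleomycin lungs and 7 in LNP lungs.

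Lungs of the bleomycin group held less summed RNA of these enzymes. The summed level of all 142 members was 13558, 15624 and 14058 CPM in control libraries and 4047, 4332 and 4696 CPM in bleomycin libraries, so that the bleomycin mean was 30.2% of the control mean. Cyp2f2 alone made up 35.3% of the control sum, and without it the bleomycin mean was 43.6% of control. By edgeR's quasi-likelihood test with Benjamini-Hochberg adjustment, 51 members fell and 7 rose, and 41 of the 99 tested did not pass the threshold of an adjusted p of 0.05. Among all genes tested 18.5% were called lower and 15.2% higher, 33.7% in all. The median log2 fold change of the 99 members was −1.02, against −0.05 for all genes tested. The groups did not overlap in 65 members that were lower and 13 that were higher in bleomycin libraries, while the shares among all genes were 29.6% and 25.9%. In RNA of whole lung, fewer cells of a type and less RNA per cell cannot be told apart. Without LNP replicate 3, which enters through the shared estimate of spread, 55 members fell and 12 rose, against 22.1% and 20.5% of all genes. The 5 added rises, named after their values were seen, were Aldh18a1, Cyp4f16, Gsta1, Gsta13 and Gstm5.

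The families did not move alike. Summed P450 RNA in bleomycin lungs was 15.6% of control and summed carboxylesterase RNA 21.6%, while the sums for the other families were 37.6% (Aldh), 49.7% (Gst), 63.9% (Fmo) and 91.6% (Ugt) of control. Part of the P450 difference was 1 gene, and without Cyp2f2 the P450 sum was 38.2% of control. Median log2 fold changes of the members tested were −1.98 for Ces (11 genes), −1.71 for Fmo (6 genes), −1.02 for Gst (23 genes), −0.82 for Aldh (19 genes), −0.73 for Cyp (36 genes) and 0.27 for Ugt (4 genes). The sums of the 2 groups did not overlap in any family but Ugt.

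**Figure D1:**
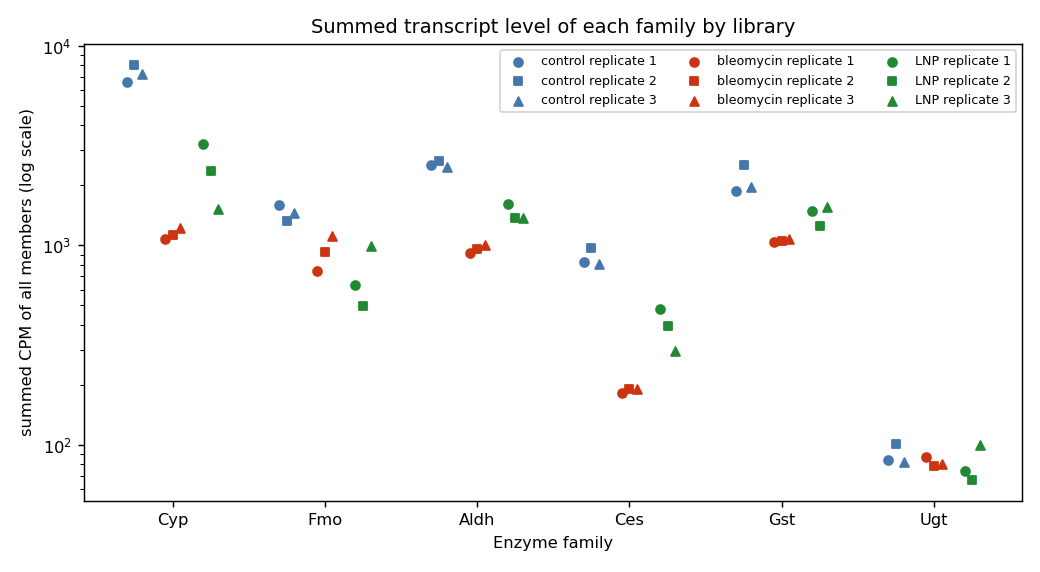
Summed CPM of each family in each of the 9 libraries, on a log axis, with colours for the groups and marker shapes for the replicate numbers. Bleomycin libraries lie below all control libraries in every family but Ugt, and LNP replicate 3 has the lowest P450 sum of the LNP group, 1519 CPM.

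**Figure D2:**
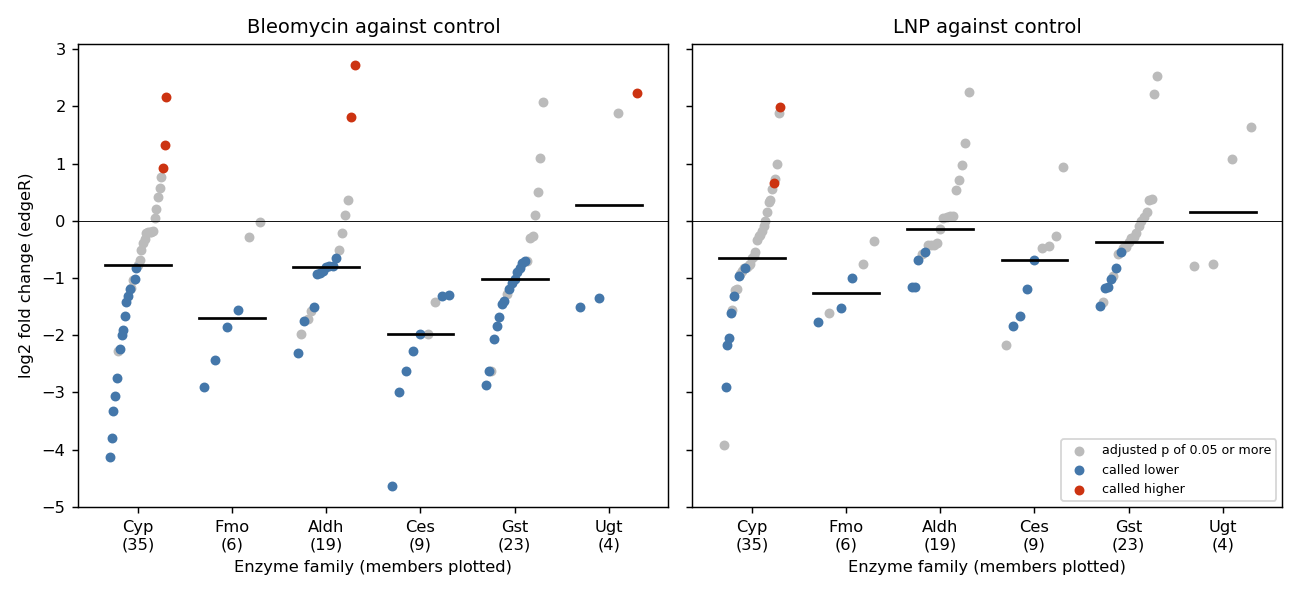
Log2 fold changes against control (edgeR) of the members tested, by family, for bleomycin (left) and LNP (right), with the median of the plotted members as a black line and called members in colour. Cyp21a1, Ces1c and Ces1h, each with no count in all libraries of a group, are not drawn, and most points of the left panel lie below 0.

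Among the 36 P450 genes tested, 14 fell, 4 rose and 18 did not pass, while 18.5% of all genes tested fell and 15.2% rose. Cyp2f2 (ENSMUSG00000052974, chromosome 7, 26819334 to 26833085 in the deposited table, whose build is not given) measured 4467, 5625 and 5181 CPM in control, 239, 287 and 349 CPM in bleomycin and 1986, 1208 and 500 CPM in LNP libraries. The 3 groups did not overlap, and LNP replicate 3 was the lowest of its group. The gene fell by 4.13 on the log2 scale in bleomycin lungs (SE 0.44, 17.5-fold, adjusted p = 0.00028). Cyp4b1 measured 1018, 1181 and 913 CPM in control and 238, 214 and 204 CPM in bleomycin libraries, without overlap, and fell by 2.25 (SE 0.24, adjusted p = 0.00028). Cyp2s1, a P450 of epithelial barrier tissues, fell by 1.31 (SE 0.18, adjusted p = 0.00071), and Cyp2b10, a mouse P450 inducible through the receptor CAR in liver, fell by 1.20 (SE 0.22, adjusted p = 0.003). Cyp2a5, a coumarin hydroxylase, was uneven in control lungs, with 55.5, 76.4 and 164 CPM, against 16.9, 30.6 and 45.5 CPM in bleomycin lungs. Its fall of 1.67 passed (adjusted p = 0.029) but was lost without control replicate 3 (adjusted p = 0.12), bleomycin replicate 1 (0.1) or bleomycin replicate 2 (0.085). Reads of near-identical genes of the Cyp2a, Cyp2b and Cyp4f groups may be split between copies by the authors' counting, so single values within these groups are uncertain.

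**Figure D3:**
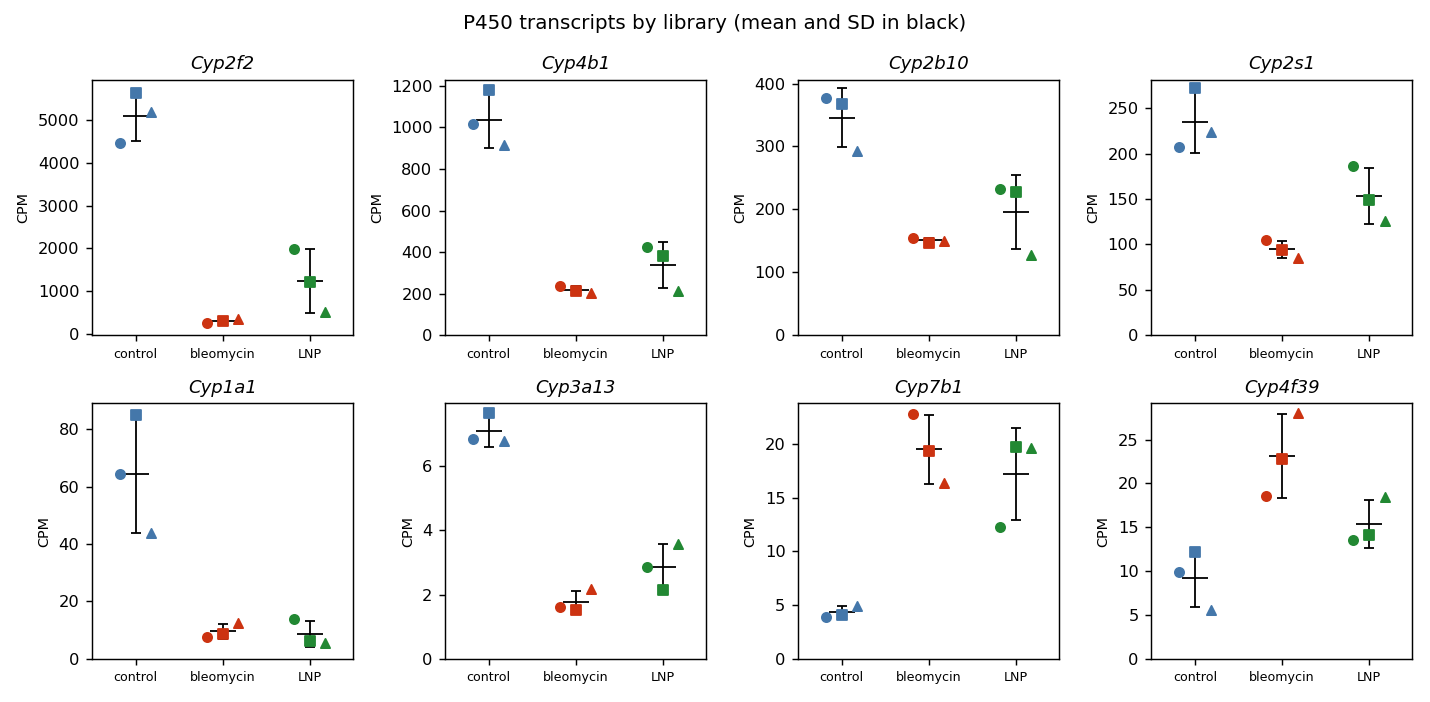
CPM of 8 P450 genes in each library, with group mean and SD in black and marker shapes for the replicate number. Cyp2f2, Cyp4b1, Cyp2b10, Cyp2s1, Cyp1a1 and Cyp3a13 were lower in all bleomycin than in all control libraries, and Cyp7b1 and Cyp4f39 were higher.

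Cyp27a1, which hydroxylates the side chain of cholesterol in mitochondria, measured 27.0, 29.2 and 26.1 CPM in control and 5.65, 7.01 and 9.26 CPM in bleomycin libraries and fell by 1.91 (SE 0.27, adjusted p = 0.00089). Cyp3a13, a member of the drug-oxidising Cyp3a group, fell by 2.00 (SE 0.27, adjusted p = 0.00068) from 6.79 to 7.64 CPM in control to 1.52 to 2.16 CPM in bleomycin libraries. Cyp4f15 fell by 3.07 (SE 0.47, adjusted p = 0.0014) from 9.95 to 12.3 CPM to at most 2.09 CPM. Groups did not overlap in any of these 3 genes. Cyp2e1, an ethanol-oxidising P450 of liver and fat, measured 34.7, 32.9 and 47.0 CPM in control and 0, 4.33 and 7.03 CPM in bleomycin libraries. Its fall of 3.33 (SE 1.07, adjusted p = 0.037) was lost without any 1 of the control replicates 1, 2 and 3 or bleomycin replicate 2 (adjusted p between 0.068 and 0.1) and by DESeq2 (adjusted p = 0.075). The summed level of 9 adipocyte markers was 206 to 261 CPM in control and 26.8 to 47.8 CPM in bleomycin libraries, and its part in the Cyp2e1 result was not tested. The summed level of 11 liver markers was 5.25 to 6.58 CPM in control, 50.2 to 50.6 CPM in bleomycin and 8.79, 8.04 and 39.7 CPM in LNP libraries, with 2 of 7 tested called higher and 1 lower in bleomycin lungs. Of all genes tested 15.2% were called higher and 18.5% lower there. Most of the bleomycin sum was Tat, at 39.2, 39.0 and 42.9 CPM, while albumin was at most 1.18 CPM in any library, and the part of these markers in the Cyp2e1 result was not tested.

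Cyp1a1, the classical target of the aryl hydrocarbon receptor AHR, fell sharply. Its level was 64.2, 84.9 and 43.7 CPM in control, 7.54, 8.61 and 12.6 CPM in bleomycin and 13.7, 6.30 and 5.54 CPM in LNP libraries. All 6 challenged libraries lay below all control libraries, and bleomycin and LNP libraries overlapped. The fall was 2.75 in bleomycin (SE 0.39, 6.71-fold, adjusted p = 0.00093) and 2.91 in LNP lungs (SE 0.39, adjusted p = 0.003), and both held on leaving out any 1 of the 9 libraries. Other genes tied to the receptor were mixed. Ugt1a6a and Cyp2s1, known as inducible through AHR, also fell, with values given beside their families. Ahr itself (log2 fold change −0.42, 95% interval −0.89 to 0.05, adjusted p = 0.15), its partner Arnt (−0.08, adjusted p = 0.6), its repressor Ahrr (−1.32, adjusted p = 0.41, at most 0.643 CPM) and the target Cyp1b1 (−0.19, 95% interval −1.17 to 0.79, adjusted p = 0.77) did not pass. Tiparp, another AHR target that modifies proteins with ADP-ribose, rose by 0.97 (SE 0.32, adjusted p = 0.044), from 32.9, 15.9 and 29.6 CPM to 72.7, 49.0 and 31.7 CPM, with groups that overlapped. That call was lost without any 1 of 7 libraries, to an adjusted p of 0.18 without bleomycin replicate 1, and was kept without bleomycin replicate 3 or LNP replicate 3. Arnt, Ahrr and Cyp1b1 were chosen after their values were seen.

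The promoters of 2 P450 genes that fell are shown because they hold the letters of the AHR response core, GCGTG. The sequences are the 250 bases before the start site on the plus strand, from RefSeq on GRCm38.p6, with each match, read on either strand, in capitals. Cyp1a1 lies at chr9:57697363-57697612 with a match 54 bases before the start. Cyp2b10 lies at chr7:25897408-25897657 with matches 101 and 9 bases before the start.
Cyp1a1: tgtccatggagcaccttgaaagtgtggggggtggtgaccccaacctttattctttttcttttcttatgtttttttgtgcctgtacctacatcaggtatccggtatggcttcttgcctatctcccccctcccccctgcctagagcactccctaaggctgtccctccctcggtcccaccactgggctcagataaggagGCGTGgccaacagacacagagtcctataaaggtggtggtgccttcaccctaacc
Cyp2b10: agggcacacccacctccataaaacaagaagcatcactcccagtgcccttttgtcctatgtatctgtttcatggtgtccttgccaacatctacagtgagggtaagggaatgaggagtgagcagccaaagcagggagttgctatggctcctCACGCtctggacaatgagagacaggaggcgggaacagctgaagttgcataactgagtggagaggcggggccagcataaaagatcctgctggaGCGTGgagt
By gene the motif was found in 30.9% of 27025 genes of this table (28.2% of its 32851 windows) and in 25 of 113 members with an entry, among them 10 of 41 that fell and 1 of 3 that rose. These shares describe letters in a short window and say nothing about binding.

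The 4 P450 genes that rose were Cyp7b1, Cyp4f39, Cyp4f18 and Cyp21a1. Cyp7b1, the hydroxylase of oxysterols such as 25-hydroxycholesterol, measured 3.92, 4.10 and 4.95 CPM in control, 22.8, 19.3 and 16.4 CPM in bleomycin and 12.3, 19.7 and 19.6 CPM in LNP libraries. Both challenged groups lay above control without overlap and overlapped with each other. The rise was 2.17 in bleomycin (SE 0.23, 4.51-fold, adjusted p = 0.00027) and 1.99 in LNP lungs (SE 0.23, adjusted p = 0.0015). Cyp4f39, an omega-hydroxylase of very long fatty acids, rose by 1.33 (SE 0.28, adjusted p = 0.0065), from 9.90, 12.2 and 5.58 CPM to 18.5, 22.8 and 28.0 CPM. Cyp4f18, a leukotriene hydroxylase of myeloid cells, rose by 0.92 (SE 0.30, adjusted p = 0.04). Its call was lost without any 1 of the 6 control and bleomycin libraries (adjusted p from 0.059 to 0.13) and with the replicate number as a block (adjusted p = 0.055). The summed level of 14 macrophage markers was 6321 to 7814 CPM in control and 13004 to 13396 CPM in bleomycin libraries, and its part in these rises was not tested. The remaining rise was that of Cyp21a1, the steroid 21-hydroxylase, which had no count in the control libraries and 0.655, 0.481 and 0.877 CPM in bleomycin libraries (adjusted p = 0.0093). It was at least 44.1-fold higher when the control group is set to a floor of 3 counts in its 3 libraries, and a near-identical pseudogene makes its counts uncertain. It was named after its values were seen.

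Flavin-containing monooxygenases differed among themselves, and the most abundant did not pass. Fmo2, the main form of mouse lung, measured 978, 613 and 823 CPM in control and 652, 789 and 941 CPM in bleomycin libraries, with overlapping ranges (log2 fold change −0.02, 95% interval −0.89 to 0.85, adjusted p = 0.97). Fmo1, a form also found in liver and kidney, measured 496, 588 and 495 CPM in control and 69.7, 98.9 and 122 CPM in bleomycin libraries. It fell by 2.44 (SE 0.32, 5.43-fold, adjusted p = 0.00068). Fmo5, a Baeyer-Villiger type oxygenase, fell by 1.85 (SE 0.24, adjusted p = 0.0006). Fmo6 fell by 2.91 (SE 0.89, adjusted p = 0.031) at a level of only 1.09 to 2.47 CPM in control, and its call was lost without any 1 of the 3 control libraries or bleomycin replicate 2 (adjusted p from 0.056 to 0.1). In the LNP group Fmo2 measured 329, 260.5 and 838 CPM, where replicates 1 and 2 lay below every other library and replicate 3 within the range of the others. Its difference from bleomycin did not pass with all libraries (−0.74, 95% interval −1.61 to 0.13, adjusted p = 0.27) and passed without LNP replicate 3 (−1.43, adjusted p = 0.0018).

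**Figure D4:**
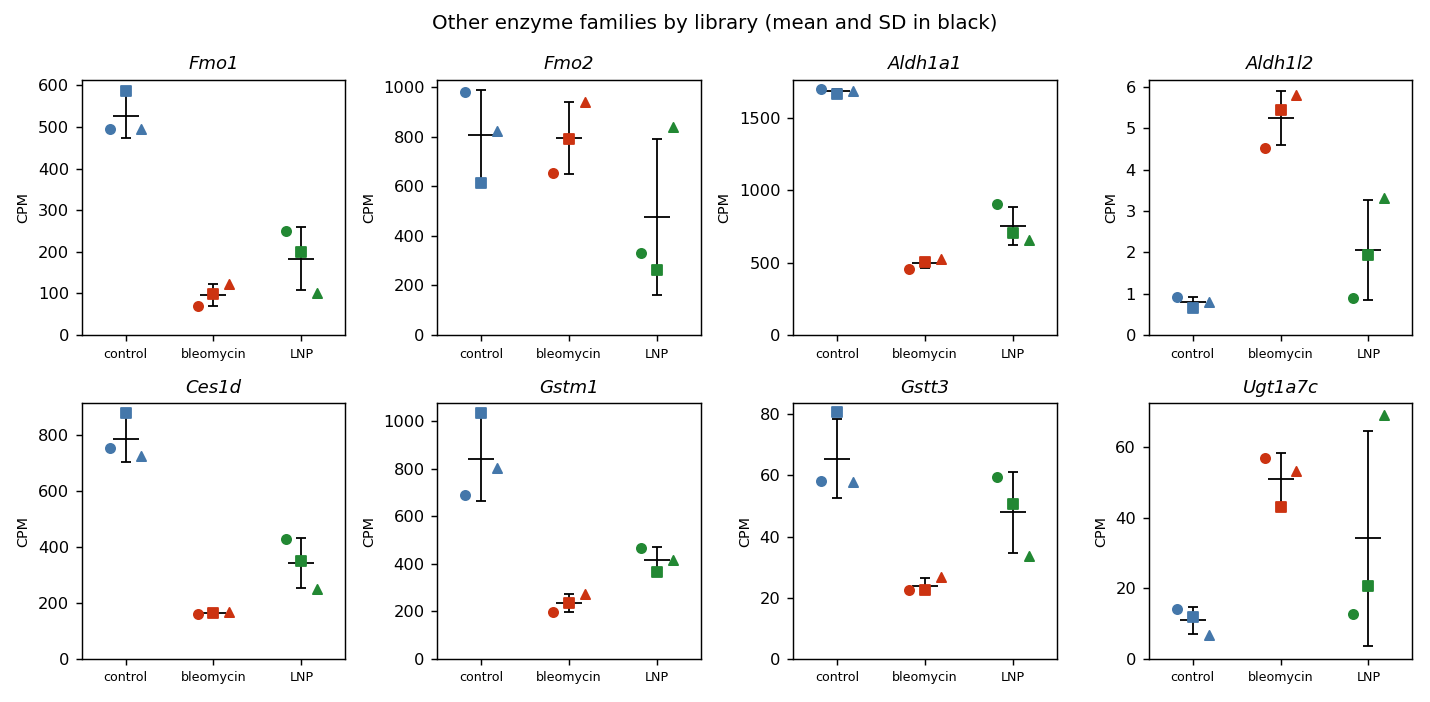
CPM of 8 genes of the other 5 families in each library, with group mean and SD in black and marker shapes for the replicate number. Control and bleomycin libraries overlap for Fmo2, while Fmo1, Aldh1a1, Ces1d, Gstm1 and Gstt3 are lower and Aldh1l2 and Ugt1a7c higher in all bleomycin libraries.

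Among aldehyde dehydrogenases 10 fell, 2 rose and 7 did not pass, while 18.5% of all genes tested fell and 15.2% rose. Aldh1a1 measured 1699, 1663 and 1686 CPM in control, 459, 503 and 529 CPM in bleomycin and 905, 705 and 654 CPM in LNP libraries. The 3 groups did not overlap, and the fall in bleomycin lungs was 1.76 (SE 0.15, 3.39-fold, adjusted p = 0.00012). Aldh1a7, a close relative on chromosome 19, fell by 2.31 (SE 0.31, adjusted p = 0.00074), and reads shared between the 2 paralogs could be split. Aldh1a3, which also makes retinoic acid, went the other way. It rose by 1.81 (SE 0.42, adjusted p = 0.0096), from 1.89 to 2.56 CPM to 4.82 to 11.1 CPM. Aldh4a1, a mitochondrial enzyme of proline breakdown, fell by 1.51 (SE 0.20, adjusted p = 0.00074) with 49.6, 66.4 and 47.1 CPM in control and 15.9, 19.7 and 21.7 CPM in bleomycin libraries. Aldh1l2, the mitochondrial 10-formyltetrahydrofolate dehydrogenase of 1-carbon metabolism, rose by 2.72 (SE 0.43, 6.61-fold, adjusted p = 0.0016), from 0.666 to 0.914 CPM in control to 4.52 to 5.80 CPM in bleomycin libraries without overlap. Its cytosolic counterpart Aldh1l1, named after its values were seen, did not pass (−0.21, 95% interval −0.80 to 0.37, adjusted p = 0.56). Aldh3b1, which oxidises lipid aldehydes, fell by 0.65 (SE 0.18, adjusted p = 0.023), a call lost without any 1 of the bleomycin replicates or control replicates 1 and 2 (adjusted p from 0.05 to 0.076).

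No carboxylesterase rose, and 7 of the 11 tested fell, while 15.2% of all genes tested rose and 18.5% fell. edgeR's test called 0 higher with all libraries and 0 without LNP replicate 3. Ces1d, which made up 90.3% of the summed Ces level in control lungs, measured 754.5, 879 and 725 CPM in control and 160, 163 and 166 CPM in bleomycin libraries. The groups were far apart relative to their spread, and the fall was 2.27 (SE 0.19, 4.82-fold, adjusted p = 0.00012). Its neighbours Ces1e and Ces1f on chromosome 8 fell by 2.62 (SE 0.29, adjusted p = 0.00034) and by 3.00 (SE 0.30, adjusted p = 0.00021), from mean control levels of 13.9 and 13.2 CPM. Ces1d, Ces1e and Ces1f are similar in sequence, so counts could be split among them. Of the Ces2 group, Ces2g fell by 1.31 (SE 0.16, adjusted p = 0.00052), with 30.5, 42.3 and 41.4 CPM in control and 13.4, 17.1 and 15.5 CPM in bleomycin libraries. Ces2b measured 3.38 to 3.85 CPM in control and 0, 0.186 and 0.242 CPM in bleomycin libraries and fell by 4.64 (SE 0.96, adjusted p = 0.0056).

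Glutathione S-transferases of the chosen classes showed 14 falls and no rise among 23 genes tested, with 9 not passing. Of all genes tested 18.5% fell and 15.2% rose. Gstm1 measured 688, 1032 and 801 CPM in control, 198, 236 and 273 CPM in bleomycin and 468, 363 and 416 CPM in LNP libraries. The 3 groups did not overlap, and the fall in bleomycin lungs was 1.83 (SE 0.19, 3.57-fold, adjusted p = 0.00026). Gstm2, next to it, fell by less, 0.73 (SE 0.15, adjusted p = 0.0047), while the scarcer Gstm6 fell by 2.06 (SE 0.28, adjusted p = 0.0008) and Gstm3 by 2.87 (SE 0.57, adjusted p = 0.0048). In the alpha class, whose members reduce lipid peroxides, Gsta2 fell by 2.63 (SE 0.38, adjusted p = 0.001) and Gsta3 by 1.41 (SE 0.22, adjusted p = 0.0014). Gsta3 measured 202, 226 and 168 CPM in control and 66.6, 74.6 and 83.9 CPM in bleomycin libraries. Gstt3, of the theta class that handles small halogenated compounds, fell by 1.46 (SE 0.22, adjusted p = 0.0013). Gsto1, an omega-class thioltransferase, measured 209, 290.3 and 210.5 CPM in control and 302, 251 and 212 CPM in bleomycin libraries, with overlap (log2 fold change 0.11, 95% interval −0.45 to 0.67, adjusted p = 0.77). Gstp1, the pi-class form, did not pass either (−0.29, 95% interval −0.59 to 0.00, adjusted p = 0.12), and was named after its values were seen.

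The promoter of Gsta3 is shown because it carries the core of the antioxidant response element, TGACNNNGC, through which the factor NRF2 acts. It is the 250 bases before the start site on the plus strand (RefSeq, GRCm38.p6, chr1:21240335-21240584), with the match, 121 bases before the start, in capitals.
Gsta3: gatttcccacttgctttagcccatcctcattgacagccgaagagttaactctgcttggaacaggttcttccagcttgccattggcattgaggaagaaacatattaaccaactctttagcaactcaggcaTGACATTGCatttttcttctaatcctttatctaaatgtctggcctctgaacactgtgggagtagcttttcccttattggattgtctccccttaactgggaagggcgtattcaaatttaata
The motif, searched on both strands, was found in 11.5% of the 27025 genes (10.2% of the 32851 windows), in 8 of the 113 members with an entry, in 4 of the 41 that fell and in 1 of the 3 that rose. Nfe2l2, which encodes NRF2, did not pass (log2 fold change −0.10, 95% interval −0.57 to 0.38, adjusted p = 0.76).

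Of 12 UDP-glucuronosyltransferases 4 passed the filter, each of the Ugt1a locus, whose genes share their last exons, so counts could be split among them. Ugt1a6a, which conjugates planar phenols, measured 64.5, 74.7 and 68.6 CPM in control and 25.9, 31.8 and 23.4 CPM in bleomycin libraries and fell by 1.36 (SE 0.29, adjusted p = 0.0071). Ugt1a6b fell by 1.51 (SE 0.40, adjusted p = 0.018), a call lost without control replicate 2 (adjusted p = 0.057) or bleomycin replicate 1 (0.071). In the deposited transcript counts 1 Ugt1a6b transcript held at least 91.0% of the gene in each control library and in bleomycin replicate 1, but 0% in bleomycin replicates 2 and 3. Whether this reflects read assignment or transcript use was not tested. Ugt1a7c rose by 2.23 (SE 0.55, 4.70-fold, adjusted p = 0.013), from 14.2, 11.8 and 6.68 CPM in control to 57.0, 43.1 and 53.2 CPM in bleomycin libraries, a call lost without control replicate 3 (adjusted p = 0.054). The LNP libraries held 12.7, 20.6 and 69.2 CPM of Ugt1a7c, so replicates 1 and 2 lay below and replicate 3 above all bleomycin libraries. Its difference between LNP and bleomycin did not pass with all libraries (−0.58, adjusted p = 0.54) and passed without LNP replicate 3 (−1.62, adjusted p = 0.0053).

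Many members sit in clusters of tandem copies, and neighbours differed in the size or direction of their change. On chromosome 3 (107803137 to 107952210 in the deposited table) 6 of 7 Gstm genes fell, with log2 fold changes from −2.87 to 0.50 along the cluster. The exception, Gstm5, did not pass (0.50, SE 0.24, adjusted p = 0.14) and was named after its values were seen. In the Cyp4f cluster of chromosome 17 Cyp4f39 rose and Cyp4f15 fell, and log2 fold changes of the 5 genes tested ranged from −3.07 to 1.33. At the Ugt1a locus of chromosome 1 the range was −1.51 to 2.23.

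**Figure D5:**
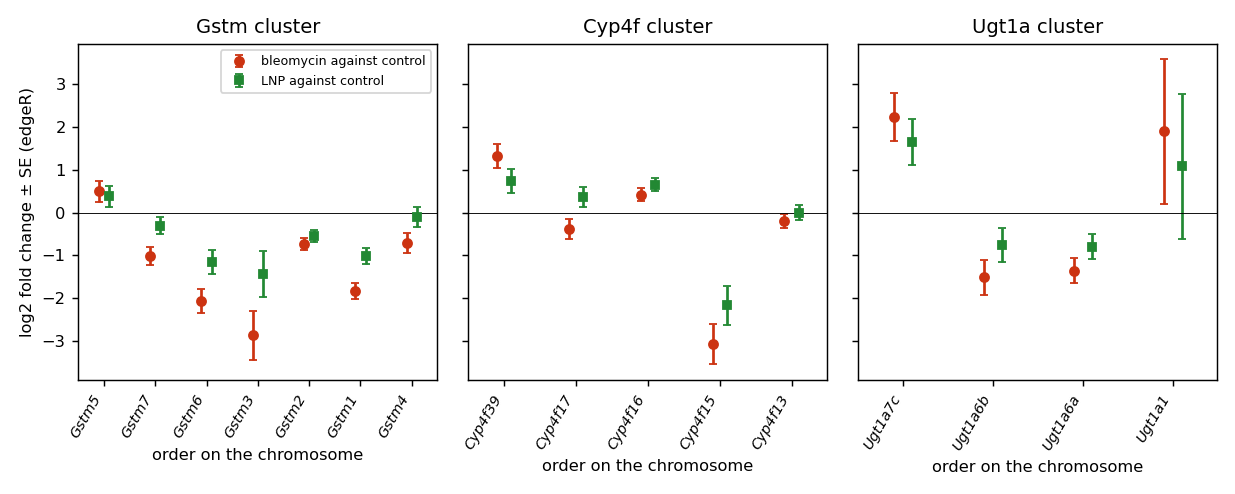
Log2 fold change against control with SE for the members tested in 3 gene clusters, in their order on the chromosome, for bleomycin and LNP. Gstm6, Gstm3 and Gstm1 lie well below 0 and Gstm5 above it, and Ugt1a7c lies above 0 beside the falling Ugt1a6b and Ugt1a6a.

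The genes that work with these enzymes were read from 7 lists and were mixed. Of 102 partner genes tested, 21 rose and 28 fell in bleomycin lungs, while 15.2% of all genes tested rose and 18.5% fell. The same shares stand beside the counts of the single lists. Por, the NADPH reductase that feeds electrons to microsomal P450 enzymes, fell by 1.04 (SE 0.18, adjusted p = 0.0022), from 366, 553 and 500.4 CPM to 261, 231 and 199.5 CPM. Ephx1, the microsomal epoxide hydrolase, fell by 1.35 (SE 0.23, adjusted p = 0.0022). Among other oxidoreductases 8 of 20 fell and 2 rose, with the aldehyde oxidase Aox3 down by 3.57 (SE 0.37, adjusted p = 0.00026), Aox1 down by 1.84 (SE 0.16, adjusted p = 0.00012) and the aldo-keto reductase Akr1b8 up by 2.12 (SE 0.21, adjusted p = 0.0002). Hmox1, the haem oxygenase induced by oxidative stress, rose by 4.22 (SE 0.78, adjusted p = 0.0033), but bleomycin libraries ranged from 1518 CPM in replicate 1 through 740 CPM to 111 CPM in replicate 3. Of 8 genes of glutathione synthesis, reduction, breakdown and cystine import, 3 rose and none fell by edgeR's test. The cystine importer Slc7a11 rose by 3.73 (SE 0.55, adjusted p = 0.0011), the glutathione reductase Gsr by 0.76 (SE 0.14, adjusted p = 0.0033) and Gclc, the catalytic subunit of glutamate-cysteine ligase, by 1.10 (SE 0.32, adjusted p = 0.027). The Gclc call was lost without any 1 of 5 control or bleomycin libraries (adjusted p from 0.057 to 0.11). Without LNP replicate 3 this list held 4 rises and 2 falls.

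Blmh, the hydrolase that inactivates bleomycin, showed no difference between control and bleomycin lungs that passed the test. It measured 53.3, 61.9 and 54.4 CPM in control, 53.1, 53.9 and 60.9 CPM in bleomycin and 71.9, 65.5 and 56.5 CPM in LNP libraries, with overlap throughout. The log2 fold change of bleomycin against control was −0.01 (95% interval −0.31 to 0.28, adjusted p = 0.94). In the same list the paraoxonase Pon1 fell by 3.99 (SE 0.45, adjusted p = 0.00035) and the lysosomal lipase Lipa rose by 0.56 (SE 0.14, adjusted p = 0.016), a rise lost without control replicate 3, bleomycin replicate 2 or bleomycin replicate 3 (adjusted p from 0.052 to 0.063). Pon3 fell by 0.95 (SE 0.32, adjusted p = 0.046), a fall lost without any 1 of 7 libraries (adjusted p from 0.056 to 0.13). Of the 14 receptors and regulators, the xenobiotic receptor PXR (Nr1i2) fell by 1.83 (SE 0.38, adjusted p = 0.0056) at 1.11 to 2.36 CPM in control. Hnf4a, a liver and gut regulator, rose from 0, 0.121 and 0 CPM to 2.52, 0.962 and 0.559 CPM (adjusted p = 0.0079). Among genes of conjugation, of its cofactors and of prostaglandin synthesis, 6 of 24 rose and 6 fell. The prostaglandin synthases Hpgds (2.87, SE 0.43, adjusted p = 0.0013) and Ptges (1.46, SE 0.23, adjusted p = 0.0016) were higher. The indolethylamine methyltransferase Inmt was lower by 2.92 (SE 0.25, adjusted p = 0.00012). Transporters showed 4 rises and 7 falls among 19, with the efflux pump Abcb1b up by 2.06 (SE 0.36, adjusted p = 0.0025), the carnitine carrier Slc22a5 down by 1.32 (SE 0.14, adjusted p = 0.00024) and the anion carrier Slco1a5 down by 1.67 (SE 0.30, adjusted p = 0.0028).

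Markers of several lung cell types moved in the same comparison, in which 15.2% of all genes tested were called higher and 18.5% lower. The summed level of 13 club and secretory cell markers, none of them a member, was 22268 to 28568 CPM in control and 7840 to 8020 CPM in bleomycin libraries, and 8 of 12 tested were called lower and 1 higher. Ciliated cell markers summed to 916 to 1201 CPM and to 259 to 309 CPM, with 13 of 14 called lower. Alveolar type 2 markers summed to 26114 to 34730 CPM and to 9473 to 11316 CPM, with 9 of 12 lower, and resting fibroblast markers to 4510 to 5720 CPM and to 2026 to 2586 CPM, with 6 of 11 lower. Markers of endothelium (9 of 14 lower, 2 higher), heart muscle (9 of 12 lower) and adipocytes (7 of 9 lower) were called too. Alveolar type 1 markers summed to 7697 to 9171 CPM in control and 8855 to 9898 CPM in bleomycin libraries, with 3 of 10 called higher and 1 lower. Each marker of the 13 lists that was found in the deposited gene table had counts in at least 1 library. Some chosen markers were not found there and could not be counted. Found were 11 of 12 for liver, 12 of 14 for squamous epithelium and 8 of 10 for olfactory or nasal mucosa. The part of these shifts in the falls of the enzymes was not tested.

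Between LNP and bleomycin lungs the differences were mostly upward and smaller. With all libraries 13 members were higher in LNP lungs and none lower by edgeR's quasi-likelihood test, against 4.28% and 1.87% of all genes (6.16% in all). At an unadjusted p under 0.05 the counts were 39 higher and 3 lower, and DESeq2 called 29 higher and 1 lower. Shares of all genes under these criteria are not given here, and the 4.28% and 1.87% hold for edgeR's adjusted p only. The median log2 difference was 0.55 over the 99 members and 0.04 over all genes tested. The count depended strongly on single libraries. It was 38 higher and 6 lower without LNP replicate 3 (14% and 10.7% of all genes), but 0 higher without bleomycin replicate 1, bleomycin replicate 2 or LNP replicate 1, 1 without LNP replicate 2, 4 without bleomycin replicate 3 or control replicate 3, 5 without control replicate 1 and 10 without control replicate 2. Each of the 13 calls was lost without bleomycin replicate 1, bleomycin replicate 2 or LNP replicate 1, and Cyp27a1 was the call kept without LNP replicate 2. Each LNP library on its own lay above all bleomycin libraries in 66, 59 and 59 of the 99 members (66.7%, 59.6% and 59.6%, against 39.4%, 37.7% and 36.3% of all genes). It lay below all control libraries in 58, 63 and 55 members (58.6%, 63.6% and 55.6%, against 31.0%, 32.5% and 34.7%).

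Of the 13 members that were higher in LNP lungs, 4 were P450 genes, 4 carboxylesterases, 3 glutathione S-transferases and 2 aldehyde dehydrogenases. Cyp2f2 was higher by 2.08 (SE 0.41, adjusted p = 0.021), and by 2.46 without LNP replicate 3 (adjusted p = 0.0001). The difference did not pass without bleomycin replicate 1, bleomycin replicate 2, LNP replicate 1 or LNP replicate 2 (adjusted p from 0.055 to 0.099). Ces1d, at 428, 351 and 249.0 CPM in LNP libraries, was higher by 1.07 (SE 0.19, adjusted p = 0.015), and Aldh4a1, at 45.2, 45.5 and 31.2 CPM, by 1.09 (SE 0.20, adjusted p = 0.018). All 3 LNP libraries lay above all bleomycin libraries in these genes, and replicate 3 was the lowest. Both calls were lost without the same 4 libraries (adjusted p from 0.051 to 0.082). Cyp27a1, at 13.9, 13.4 and 24.8 CPM, was higher by 1.25 (SE 0.26, adjusted p = 0.027), and here LNP replicate 3 was the highest. Gstt3 was higher by 1.01 (SE 0.22, adjusted p = 0.03), Gstm1 by 0.82 (SE 0.19, adjusted p = 0.036), Ces1f by 1.16 (SE 0.28, adjusted p = 0.043) and Aldh1a1 by 0.60 (SE 0.15, adjusted p = 0.044). Without LNP replicate 3 these 8 also passed, with differences of 1.26 for Ces1d, 1.25 for Aldh4a1, 0.91 for Cyp27a1, 1.21 for Gstt3, 0.82 for Gstm1, 1.37 for Ces1f and 0.70 for Aldh1a1 besides Cyp2f2. The remaining calls, Cyp2s1, Cyp4v3, Ces2e, Ces2g and Gstp3, had adjusted p between 0.045 and 0.048. Of these, Cyp4v3, Ces2e and Gstp3 were named after their values were seen. Cyp4b1 (0.64, 95% interval 0.12 to 1.15, adjusted p = 0.12), Fmo1 (0.92, adjusted p = 0.1) and Cyp1a1 (−0.17, 95% interval −0.99 to 0.66, adjusted p = 0.83) did not pass. Without LNP replicate 3, Cyp4b1 (0.89, adjusted p = 0.0014) and Fmo1 (1.22, adjusted p = 0.0028) passed and Cyp1a1 did not (0.07, adjusted p = 0.92). In that fit the 6 members lower in LNP lungs were Fmo2, Ugt1a7c, Aldh1l2 (−1.89, adjusted p = 0.0042), Aldh1a3 (−1.38, adjusted p = 0.016), Cyp2d22 (−0.78, adjusted p = 0.019) and Gsta13 (−2.25, adjusted p = 0.0091). Gsta13 changed sign with that library, whose 5.98 CPM made it 0.45 higher with all libraries (adjusted p = 0.82).

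Cell markers moved between these groups as well. Ciliated cell markers summed to 407 to 699 CPM in LNP and 259 to 309 CPM in bleomycin libraries, with 11 of 14 called higher and 14 of 14 without LNP replicate 3. Without that library the alveolar type 2 markers called higher went from 1 to 11 of 12. Those of endothelium went from 0 to 9 of 14 and those of resting fibroblasts from 0 to 6 of 11. Club and secretory markers went only from 0 to 1 of 12. Markers called lower went from 3 to 6 of 14 for macrophages, from 2 to 3 for endothelium and from 0 to 1 for resting fibroblasts. Members called higher went from 13 to 38, and the share of all genes called higher from 4.28% to 14%. Alveolar type 2 markers summed to 25049, 21007 and 8285 CPM in LNP libraries, so replicates 1 and 2 lay above and replicate 3 below the bleomycin libraries, and club markers to 12991, 7705 and 8130 CPM. The part of these shifts in the enzyme differences was not tested. Among partner genes 10 were higher and 5 lower in LNP lungs, among them Aox1 (0.94, SE 0.15, adjusted p = 0.013), Pon1 (2.01, SE 0.42, adjusted p = 0.026), Aox3 (1.55, SE 0.35, adjusted p = 0.032), Ephx1 (1.00, SE 0.23, adjusted p = 0.035) and Slc22a5 (0.54, SE 0.14, adjusted p = 0.045) higher and Gsr (−0.59, SE 0.14, adjusted p = 0.041) and Hmox1 (−2.87, SE 0.73, adjusted p = 0.049) lower. These 7 partners also passed without LNP replicate 3, in the same direction. Of all genes tested 4.28% were called higher and 1.87% lower with all libraries, and 14% and 10.7% without LNP replicate 3. The counts of partners were 0 and 0 without bleomycin replicate 1 or 2, and 24 and 16 without LNP replicate 3. Without LNP replicate 1 or 2 they were 1 higher and 0 lower, and without control replicate 1 or 3 they were 2 and 2. Without bleomycin replicate 3 they were 2 higher and 6 lower.

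Compared with control lungs, RNA of some of these enzymes was lower in LNP lungs, while 73 of the 99 members tested did not pass. With all libraries 24 members were lower and 2 higher, against 3.08% and 4.95% of all genes (8.04% in all), and the median log2 difference was −0.43 over the 99 members and near 0 over all genes (−0.003). Those lower included 7 Cyp, 6 Gst, 4 Aldh and 4 Ces genes. Besides Cyp1a1, the calls with the smallest p were Aldh1a1 (−1.16, SE 0.15, adjusted p = 0.0026), Cyp4b1 (−1.61, SE 0.24, adjusted p = 0.0041), Ces1f (−1.84, SE 0.28, adjusted p = 0.0051), Ces1d (−1.20, SE 0.19, adjusted p = 0.0054), Ces1e (−1.67, SE 0.28, adjusted p = 0.0075), Gsta3 (−1.18, SE 0.21, adjusted p = 0.01) and Gstm1 (−1.02, SE 0.19, adjusted p = 0.011). These 8 held on leaving out any 1 of the 9 libraries, and without LNP replicate 3 the differences were −2.64 for Cyp1a1, −1.03 for Aldh1a1, −1.33 for Cyp4b1, −1.59 for Ces1f, −0.98 for Ces1d, −1.41 for Ces1e, −1.38 for Gsta3 and −0.98 for Gstm1. Cyp2f2 was lower by 2.05 (SE 0.41, adjusted p = 0.014), a call that missed the threshold without control replicate 3 (adjusted p = 0.051). Gsta3, at 85.0, 63.4 and 116 CPM in LNP libraries, overlapped with the bleomycin libraries. The 2 higher members were Cyp7b1 and Cyp4f16, another Cyp4f gene, which measured 16.6, 22.9 and 21.9 CPM in control and 30.0, 34.8 and 31.8 CPM in LNP libraries (0.65, SE 0.15, adjusted p = 0.029). The Cyp4f16 call was lost without control replicate 1, control replicate 3, bleomycin replicate 2 or LNP replicate 2 (adjusted p from 0.065 to 0.1). The count of lower members was 9, 10 and 12 without control replicates 3, 1 and 2, 12 without bleomycin replicate 2, 14 without LNP replicate 2, and 28 without LNP replicate 3 (4.51% of all genes). The count of higher members was 7 without LNP replicate 1, 3 without LNP replicate 3 (6.41% of all genes), and 1 without control replicate 1 or 3, bleomycin replicate 2 or LNP replicate 2.

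Some members were high in LNP replicate 3 alone, and these were named after their values were seen. Aldh3a1, an aldehyde dehydrogenase abundant in cornea and squamous epithelia, measured 226 CPM there, 26.4 and 14.3 CPM in LNP replicates 1 and 2, 15.2 to 17.6 CPM in bleomycin and 44.5 to 63.1 CPM in control libraries. Aldh3b2 measured 11.1 CPM there and at most 0.923 CPM elsewhere, Ces1h 4.27 CPM against at most 0.305 CPM, and Gsta1 5.70 CPM against at most 1.46 CPM. Among members that were not tested, Ces2f reached 1.66 CPM, Ugt1a10 1.64 CPM and Cyp2c65 0.819 CPM in this library, while Ugt1a10 and Cyp2c65 had no count in the other 8. The squamous epithelium markers Krt13 and Krt4 measured 866 and 767 CPM in LNP replicate 3 and at most 3.89 CPM elsewhere, and their part in these values was not tested. Without this library Aldh3a1 was lower in bleomycin (−1.68, adjusted p = 0.00023) and in LNP lungs (−1.37, adjusted p = 0.0072) than in control lungs, calls that did not pass with it (adjusted p = 0.13 and 0.63).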

How the data were processed

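Whole-lung RNA gave 9 libraries, made from poly(A) RNA with strand marking according to the labels' protocols. Tools named in the submitters' processing notes are fastp, StringTie and edgeR, without versions. Aligner, genome build, annotation and use of strand were not given in the sources used. Counts are whole numbers that the authors deposited by gene and by transcript. They also deposited gene FPKM, which they had scaled for length and library size as the file headers' unit name says, and which served here for levels between genes and as an alternative unit.

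Groups came from the labels. Counts of 32671 genes in 9 libraries entered 1 fit in edgeR 4.0.16 (R 4.3.3) with TMM scaling and filterByExpr, which left out 11877 genes. Every adjusted p is from edgeR's quasi-likelihood F test with Benjamini-Hochberg adjustment over 20794 genes, unless another tool or fit is named. Genes were called under 0.05. Fits that left out a library filtered and adjusted anew, over 21373 genes without LNP replicate 3. CPM use TMM-scaled library sizes. Replicates of a group differed by more than sampling noise (chi-square per degree of freedom at least 32.5).

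Members and lists were chosen with earlier results of these data known. Named members were the 3 with the highest control FPKM per family (6 for Cyp), called and non-overlapping members of at least 1 CPM with the largest change, and the 8 with the smallest p per direction in LNP comparisons. Named partners were Blmh, Por, Ahr, Nfe2l2 and up to 3 called per list with the smallest p. Others are said to be named after their values were seen. For 1 member the single-gene result is not reported here.

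Alternatives were RLE scaling, DESeq2 1.42.0, no count filter, only the 2 groups compared, a replicate block, limma 3.58.1 on log2(FPKM + 1) or log2(FPKM + 0.1), leaving out each library, and library-size scaling, which was added after the data were seen. Promoters (RefSeq, GRCm38.p6) matched 113 of 142 members by symbol. Scripts were tested on simulated data.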

Additional observations from a re-analysis of the deposited data

How the results depend on the processing

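In the comparison of bleomycin with control, every alternative kept the 51 lower members within 1.5 times (42 to 55 on leaving out 1 library), while the 7 higher ones became 5 to 12 on leaving out 1 library and the 21 higher partners became 13 by limma on log2(FPKM + 1) with no filter. The 13 members higher in LNP than bleomycin lungs became 29 by DESeq2, 5 with no count filter, 0 with only the 2 groups, 2 by limma with no filter and 0 to 38 without 1 library, and the 0 lower ones became 1 by DESeq2 and 0 to 6 without 1 library. For partners, 10 higher became 17, 3, 1, 3 and 0 to 24, and 5 lower became 12, 2, 1, 2 and 0 to 16, under the same 5 alternatives. Against control, the 2 members higher in LNP lungs became 7 by DESeq2 and 1 to 7 without 1 library, and the 24 lower ones 14 with only the 2 groups, 15 by limma with no filter and 9 to 28 without 1 library. The 8 partners higher there became 13 by DESeq2, 3 to 9 without 1 library, and 5 with no count filter, with only the 2 groups and in each of the 3 limma fits, and the 8 lower ones became 13 by DESeq2. The causes were not tested.

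With the replicate number as a block, members higher in LNP than bleomycin lungs were 3, partners were 1 higher and 1 lower, and partners higher in LNP than control lungs were 3. Other block counts stayed within 1.5 times. Libraries with the same number did not deviate together (r from −0.018 to 0.040). With 3 libraries a group this cannot settle whether the numbers mark pairs of samples. Library-size scaling moved the median of all genes in LNP against bleomycin from 0.04 to 0.16, and the members' medians kept their sign. No call on a named gene changed sign under any alternative run, but values that did not pass could, such as Cyp1a1 in LNP against bleomycin lungs (−0.17, and 0.07 without LNP replicate 3). With 3 libraries a group and 1 that stands apart, calls on LNP lungs are the least certain. The low counts of 43 members left them without a test.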
